A study of Homo sapiens with 16 samples.

Results

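The JmjC histone demethylases described here are KDM3A, KDM3B, KDM4A, KDM4B, KDM4C, KDM5A, KDM5B, KDM6A, KDM6B and KDM7A. These enzymes need oxygen to remove methyl groups from histone tails. The 10 were chosen with earlier results of these data known, and other JmjC demethylases were left out. All 10 were listed in both expression tables, out of 14108 genes in either table. The RNA came from LN229, a human glioblastoma cell line, so every library was made from 1 line and no gene was deleted or added. In the first experiment, untreated cells were kept in regular culture or in ischemic culture, which combines hypoxia with low nutrients. In the second experiment, cells in each culture received the vehicle DMSO, VX745, an inhibitor of the stress kinase p38α, or MK25, an inhibitor of MK2, the kinase that p38 activates. Each of the 8 groups held 2 libraries, 16 in all, and the doses and times of these libraries were not given in the labels. The comparisons ask how ischemic culture alters gene expression and how inhibiting either kinase alters it in each culture.

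JmjC demethylases are dioxygenases. They bind iron, consume oxygen and 2-oxoglutarate, and release the methyl group as formaldehyde, so oxygen is a substrate of the reaction. KDM3A is a known target of hypoxia-inducible factor (HIF), and several KDM4 genes have been described as induced by low oxygen. Families differ in the mark they remove, with the KDM3 and KDM4 enzymes acting mainly on methylated lysine 9 of histone H3 (H3K9), KDM5 on H3K4, KDM6 on H3K27 and KDM7A on both H3K9 and H3K27.

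Promoter windows are printed for 5 of the genes, to show where HIF-type letters lie in KDM3A, KDM4B and KDM7A, the genes with the largest rises in untreated ischemic culture, in KDM4C, which holds 2 copies of a palindrome, and in KDM3B, which did not rise. Each window runs from 250 bases before to 50 after a transcript start in RefSeq (GRCh38.p14) and is written 5′ to 3′ on the strand of the gene. The starts used for KDM3A and KDM4C lie inside the annotated gene, downstream of its outermost start, and the letters around that outermost start were not searched. Capitals mark ACGTG or GCGTG on either strand, the core letters of a HIF response element. Where ACGTG is preceded by C the letters CACGTG are also the E-box that other factors bind. The KDM3A window lies at chr2:86441121-86441420 on the plus strand, KDM4B at chr19:4968863-4969162 on the plus strand, KDM4C at chr9:6757723-6758022 on the plus strand, KDM7A at chr7:140176934-140177233 on the minus strand and KDM3B at chr5:138352435-138352734 on the plus strand.
KDM3A: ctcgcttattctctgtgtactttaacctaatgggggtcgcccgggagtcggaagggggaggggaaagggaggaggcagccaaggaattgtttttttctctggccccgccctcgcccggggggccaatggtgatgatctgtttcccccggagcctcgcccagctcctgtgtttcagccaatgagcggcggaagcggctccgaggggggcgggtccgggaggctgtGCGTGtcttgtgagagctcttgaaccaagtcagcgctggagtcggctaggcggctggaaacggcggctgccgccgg
KDM4B: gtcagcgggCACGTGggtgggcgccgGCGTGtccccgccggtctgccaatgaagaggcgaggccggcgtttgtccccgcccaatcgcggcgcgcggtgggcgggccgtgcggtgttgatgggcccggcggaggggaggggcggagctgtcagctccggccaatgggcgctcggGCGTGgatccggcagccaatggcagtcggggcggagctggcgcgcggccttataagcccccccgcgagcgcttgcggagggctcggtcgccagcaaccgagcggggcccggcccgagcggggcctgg
KDM4C: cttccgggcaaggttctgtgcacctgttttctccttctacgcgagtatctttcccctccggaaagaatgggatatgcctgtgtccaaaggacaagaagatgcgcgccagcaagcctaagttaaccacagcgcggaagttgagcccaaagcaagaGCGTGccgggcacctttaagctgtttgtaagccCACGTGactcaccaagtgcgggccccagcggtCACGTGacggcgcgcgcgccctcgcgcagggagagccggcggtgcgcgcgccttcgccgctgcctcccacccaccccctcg
KDM7A: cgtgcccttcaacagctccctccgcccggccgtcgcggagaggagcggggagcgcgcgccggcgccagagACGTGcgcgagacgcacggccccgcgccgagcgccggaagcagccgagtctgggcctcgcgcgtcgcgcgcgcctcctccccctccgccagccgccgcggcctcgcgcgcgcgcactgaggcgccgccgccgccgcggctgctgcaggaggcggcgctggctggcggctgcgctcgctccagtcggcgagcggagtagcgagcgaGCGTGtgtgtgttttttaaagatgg
KDM3B: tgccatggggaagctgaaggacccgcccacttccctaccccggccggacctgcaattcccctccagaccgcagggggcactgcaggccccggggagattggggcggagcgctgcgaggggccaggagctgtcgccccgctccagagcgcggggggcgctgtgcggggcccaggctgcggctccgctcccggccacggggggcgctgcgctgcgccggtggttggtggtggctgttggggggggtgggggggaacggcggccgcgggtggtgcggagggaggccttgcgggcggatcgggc

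ACGTG was found on either strand in the windows of 4 of the 10 genes, KDM4B, KDM4C, KDM6A and KDM7A. Among all 34961 promoter windows 21.4% held it, and among the 10729 windows of genes measured here 26.7% did. GCGTG was found in 9 of the 10 genes and in 51.0% of the windows of measured genes. For both motifs the 10 genes, with 12 windows in all, are counted by gene and the background by window, so the shares differ in unit. KDM4C carried 2 copies of CACGTG, and KDM3A, which rose most, carried no ACGTG in either of its 2 windows. KDM3B, which did not rise, carried neither set of letters. Among the genes whose windows are not printed, KDM6A held ACGTG and rose 1.83-fold in untreated ischemic culture. KDM5B and KDM6B held no ACGTG and rose 4.48-fold and 4.25-fold. KDM4A and KDM5A held GCGTG without ACGTG and rose 1.53-fold and 1.66-fold. A match describes the letters in the window and was not tested as a binding site.

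The libraries held 22346073 to 28373993 reads on listed genes in the first experiment and 20122017 to 37562668 in the second. Values are on the log2 scale of normalized CPM, the reads of a gene scaled to the size of its library. Of the line's markers, VIM, NES and CD44 were high in every group, and OLIG2 and GFAP were low (GFAP mean log2 between -0.34 and 0.98 by group). In ischemic culture VIM rose (log2 fold change 1.38 in untreated cells and 1.27 with DMSO), while SOX2 (-3.11 and -2.23), NES (-1.36 and -1.06) and OLIG2 (-1.68 and -0.81) fell. Of 5 markers of leukocytes, endothelium, neurons and oligodendrocytes, PTPRC, PECAM1, RBFOX3 and MBP were not listed. CD68, a lysosomal protein of macrophages that other cells also make, was listed and rose with the demethylase genes in ischemic culture (0.77 and 0.94), and its part in their values was not tested. The labels do not say whether replicate libraries came from separate cultures, so p-values measure only the spread between these libraries, which may be technical.

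In untreated cells, 9 of the 10 demethylase genes rose in ischemic culture and none fell, by limma with Benjamini-Hochberg adjustment over all genes at an adjusted p under 0.05. All 9 rose at least 1.5-fold and 6 rose at least 2-fold. Over all genes, 35.2% were called higher and 35.2% lower, 21.3% were higher by at least 1.5-fold and 11.3% by at least 2-fold. The median log2 fold change of the 10 genes was 2.08, against -0.0090 over all genes. Because the 10 were chosen with earlier results known, these counts and this median describe the chosen genes and not all JmjC demethylases. None of the 10 was lower at an unadjusted p under 0.05 or by voom on recovered reads. The rises fell into a group of 6 genes between 2.07 and 3.38 on the log2 scale (KDM3A, KDM4B, KDM4C, KDM5B, KDM6B and KDM7A) and 3 genes between 0.61 and 0.88 (KDM4A, KDM5A and KDM6A).

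**Figure D1:**
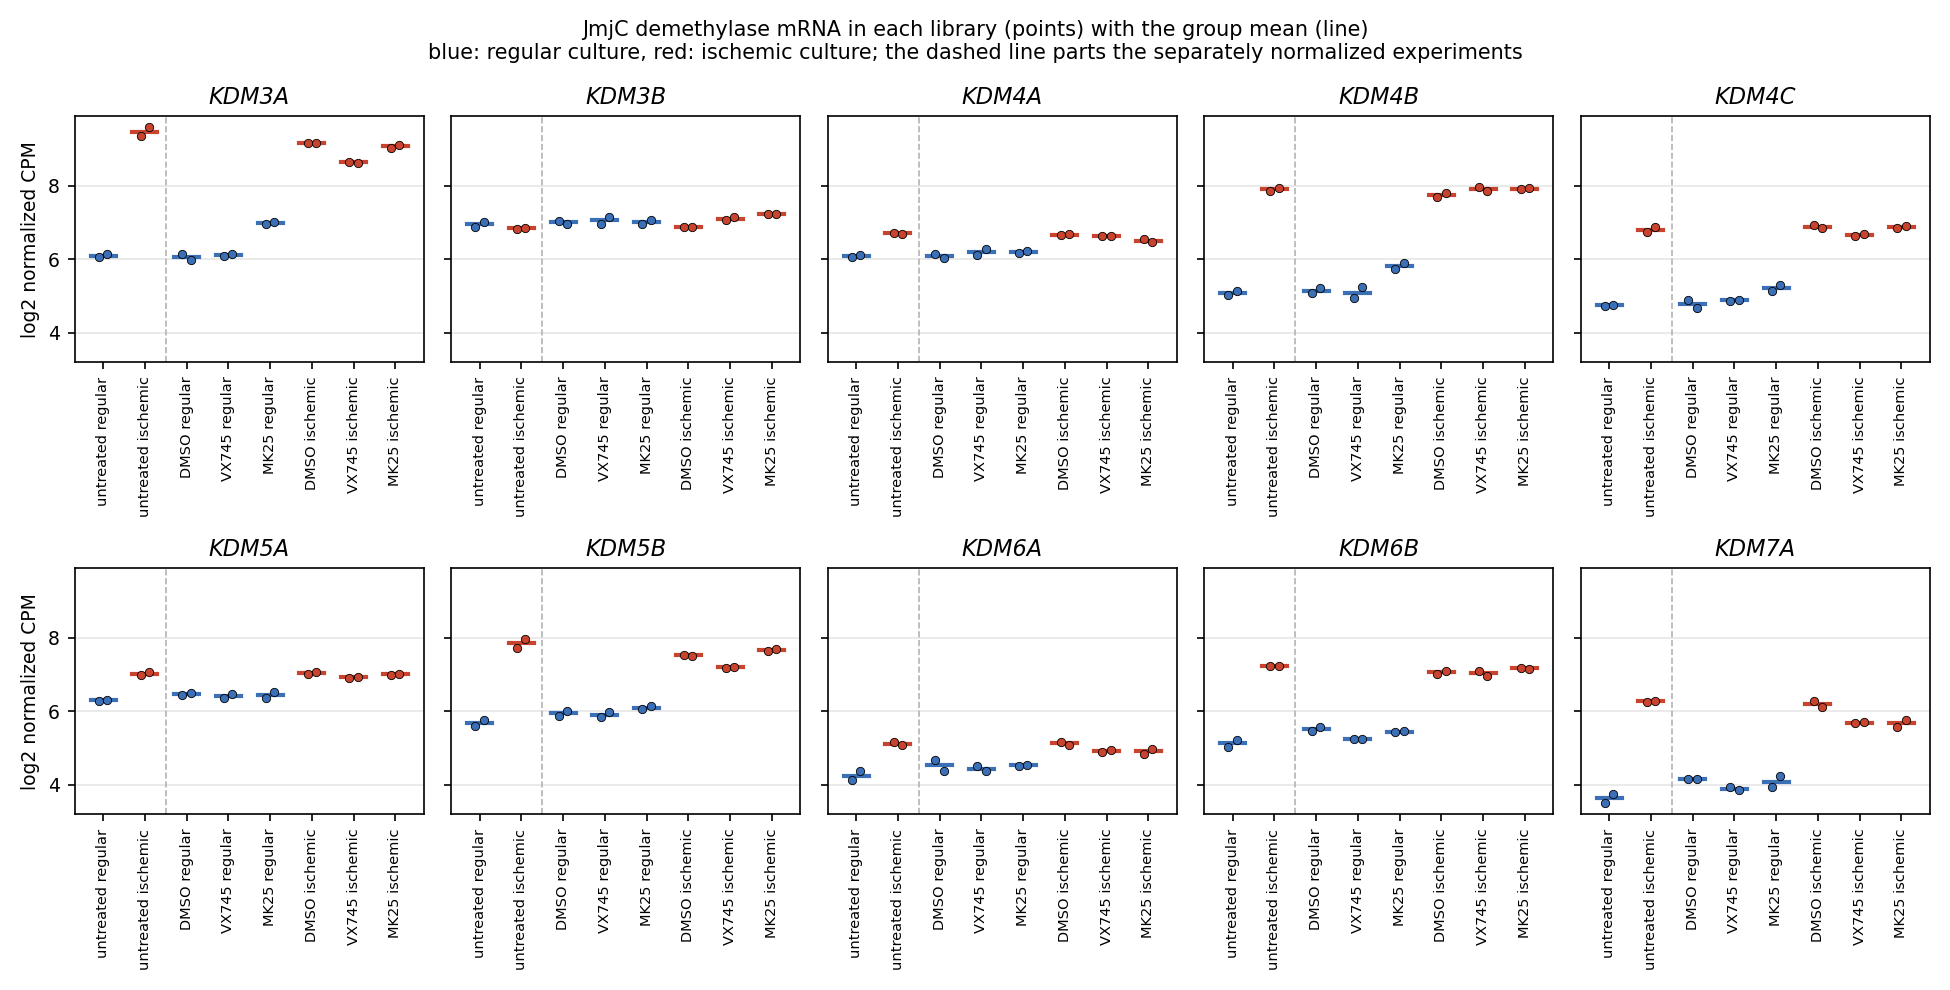
Log2 normalized CPM of each demethylase gene (vertical axis) in each library (points), with the mean of each group (line), for 8 groups (horizontal axis), in blue for regular and red for ischemic culture. The 8 ischemic libraries of KDM3A sit between 8.63 and 9.58, above every regular library, and KDM3B stays between 6.81 and 7.24 throughout.

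KDM3A (Entrez Gene 55818, chr2:86437044-86492716 in GRCh38.p14, as for all positions) removes mono- and dimethyl marks from H3K9. Its log2 level was 6.05 and 6.13 in the regular libraries and 9.35 and 9.58 in the ischemic ones. The groups did not overlap, and the log2 fold change was 3.38 (SE 0.08, adjusted p = 6.03e-12), a 10.4-fold rise. Ranked by log2 fold change it was gene 136 from the top of 13559.

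KDM3B (Entrez Gene 51780, chr5:138352685-138437027), the close paralogue of KDM3A, was the exception. Its log2 level was 6.88 and 7.02 in regular culture and 6.81 and 6.86 in ischemic culture. The ischemic libraries lay just below the regular ones, and the log2 fold change of -0.12 (95% interval -0.27 to 0.04) did not pass the test (adjusted p = 0.167). Per kilobase of transcript, the ratio of KDM3A to KDM3B was 0.81 and 0.78 in the regular libraries and 8.42 and 9.50 in the ischemic ones, so the order of the pair was turned around.

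The KDM4 enzymes act on trimethylated H3K9 and on H3K36. KDM4B (Entrez Gene 23030, chr19:4969113-5153598) had log2 levels of 5.02 and 5.12 in regular and 7.85 and 7.94 in ischemic culture. It rose 7.11-fold, a log2 fold change of 2.83 (SE 0.07, adjusted p = 1.29e-11). KDM4C (Entrez Gene 23081, chr9:6720863-7175648) went from 4.72 and 4.76 to 6.75 and 6.86, a log2 fold change of 2.07 (SE 0.08, adjusted p = 3.29e-10). The groups of both genes stood far apart.

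KDM4A (Entrez Gene 9682, chr1:43650149-43705518), the third gene of this family, moved less. Its log2 level was 6.06 and 6.12 in regular and 6.72 and 6.68 in ischemic culture, a 1.53-fold rise (log2 fold change 0.61, SE 0.07, adjusted p = 6.24e-06). The antisense gene KDM4A-AS1 overlaps it and held 27 to 109 reads per library in this experiment, and the kit does not mark strand, so reads in the overlap cannot be told apart. Per kilobase, KDM4B was 0.39 and 0.40 of KDM4A in the regular libraries and 1.76 and 1.92 of it in the ischemic ones.

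KDM5A and KDM5B remove di- and trimethyl marks from H3K4, a mark of active promoters. KDM5B (Entrez Gene 10765, chr1:202724495-202808421) had log2 levels of 5.61 and 5.76 in regular and 7.73 and 7.96 in ischemic culture, a log2 fold change of 2.16 (SE 0.09, adjusted p = 6.26e-10). KDM5A (Entrez Gene 5927, chr12:280057-389320) had 6.27 and 6.32 against 6.98 and 7.06, a log2 fold change of 0.73 (SE 0.07, adjusted p = 1.31e-06). Neither gene's groups overlapped, and the ratio of KDM5B to KDM5A per kilobase went from 0.73 and 0.78 to 1.94 and 2.15.

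KDM6A and KDM6B remove methyl marks from H3K27, the mark laid down by the Polycomb complex. KDM6B (Entrez Gene 23135, chr17:7834217-7854796) had log2 levels of 5.04 and 5.23 in regular culture and 7.22 in both ischemic libraries, a log2 fold change of 2.09 (SE 0.08, adjusted p = 3.91e-10). KDM6A (Entrez Gene 7403, chrX:44873188-45112779) had 4.13 and 4.37 against 5.15 and 5.09, a log2 fold change of 0.88 (SE 0.10, adjusted p = 7.25e-06). Of these enzymes KDM6B thus rose more than 4-fold and KDM6A less than 2-fold in untreated cells. The genes LOC124904106 and LOC107987244 overlap KDM6B and were not listed, and reads in the overlap cannot be told apart. KDM4C, KDM5A and KDM5B are also overlapped by genes that were not listed.

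KDM7A (Entrez Gene 80853, chr7:140084746-140176983) had the lowest level of the 10 genes in regular culture. Its log2 level was 3.51 and 3.76 there and 6.26 and 6.27 in ischemic culture. The log2 fold change was 2.63 (SE 0.10, adjusted p = 3.08e-10), the third largest rise of the 10 genes.

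The rise was measured again in cells that received DMSO, which are separate libraries from a separately normalized experiment. The same 9 genes rose and none fell, against 34.4% of all genes higher and 35.2% lower. Of the 9, 7 rose at least 1.5-fold, against 18.1% of all genes, and 6 at least 2-fold, against 9.03%. KDM3A had log2 levels of 6.13 and 5.98 in regular and 9.17 and 9.16 in ischemic culture, a log2 fold change of 3.11 (SE 0.06, adjusted p = 1.48e-17). KDM4B went from 5.09 and 5.20 to 7.70 and 7.80 (log2 fold change 2.61, SE 0.08), and KDM7A from 4.17 and 4.15 to 6.27 and 6.10 (log2 fold change 2.03, SE 0.09). These 3 genes again had groups far apart.

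The other DMSO values kept the split seen in untreated cells. KDM4C had a log2 fold change of 2.09, KDM5B of 1.57 and KDM6B of 1.54, while KDM4A had 0.58, KDM5A 0.56 and KDM6A 0.59. KDM3B had log2 levels of 7.05 and 6.97 in regular and 6.87 in both ischemic libraries, and its log2 fold change of -0.13 (95% interval -0.27 to 0.0047) did not pass the test (adjusted p = 0.0789). Under quantile normalization KDM3B was called lower in untreated cells (log2 fold change -0.19) and with DMSO (-0.22), and with DMSO it was also called lower without VX745 regular replicate 1 or 2 (-0.13 in both). All 7 hypoxia reference genes (CA9, ADM, NDRG1, BNIP3, EGLN3, ANKRD37 and VEGFA, textbook targets of low oxygen) rose in both experiments, with a median log2 fold change of 4.85 in untreated cells and 4.80 with DMSO.

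**Figure D2:**
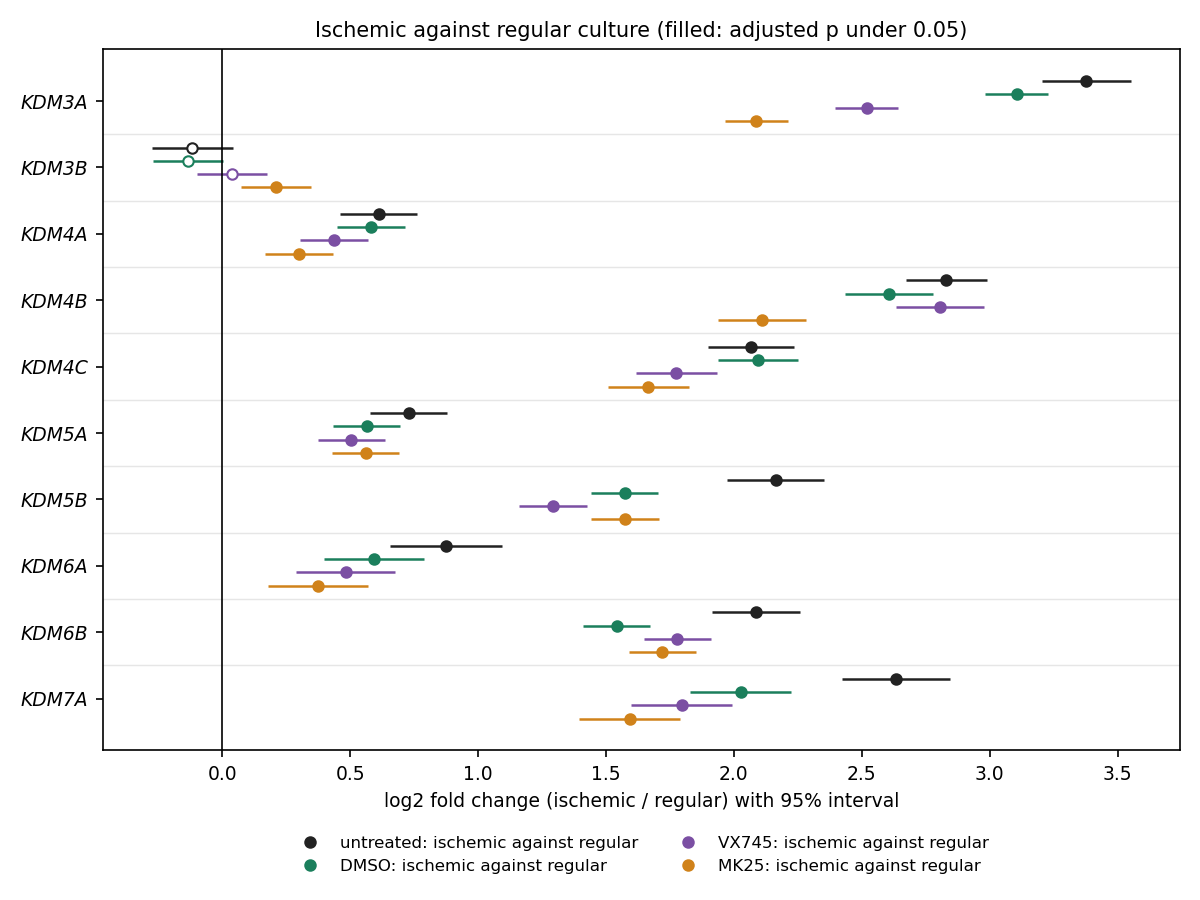
Log2 fold change of ischemic against regular culture (horizontal axis) with its 95% interval for each demethylase gene (vertical axis), in untreated cells and with DMSO, VX745 or MK25 (colours), filled where the adjusted p was under 0.05. KDM3A ranged from 2.09 with MK25 to 3.38 in untreated cells, and KDM3B lay near 0.

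Levels of different genes are compared per kilobase of transcript. In untreated regular culture KDM3B was highest with 18.4 CPM per kilobase, followed by KDM4A with 15.2 and KDM3A with 14.6, whose libraries overlapped. KDM5A followed with 7.33, and KDM4C (6.16), KDM4B (5.99), KDM5B (5.54) and KDM6B (5.23) formed a run in which each neighbour overlapped the next. KDM6A (3.13) and KDM7A (1.35) were lowest.

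In untreated ischemic culture the order was different. KDM3A stood first with 152 CPM per kilobase, KDM4B second with 42.6, and KDM4C (25.8), KDM5B (24.9) and KDM4A (23.2) followed with neighbours that overlapped. KDM6B had 22.2, KDM3B had 17.0 and was seventh, and KDM5A (12.2), KDM7A (8.35) and KDM6A (5.71) came last. KDM3A stayed first by its longest annotated transcript (81.3 CPM per kilobase), by which its regular level was 7.80.

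Summed over the 10 genes, the level was 79.9 and 86.0 CPM per kilobase in the untreated regular libraries and 317 and 351 in the ischemic ones. KDM3A alone made up 17.8% and 17.4% of that sum in regular culture and 44.2% and 46.8% in ischemic culture. With DMSO its share was 16.6% and 15.6% in regular and 42.0% and 41.7% in ischemic culture. The shares depend on the transcript length used. By its longest transcript the untreated KDM3A level was 7.80 CPM per kilobase in regular and 81.3 in ischemic culture, below the levels used here. Shares by that length would be smaller and were not computed. These shares are of mRNA, and fewer cells and less RNA per cell cannot be told apart in bulk libraries.

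**Figure D3:**
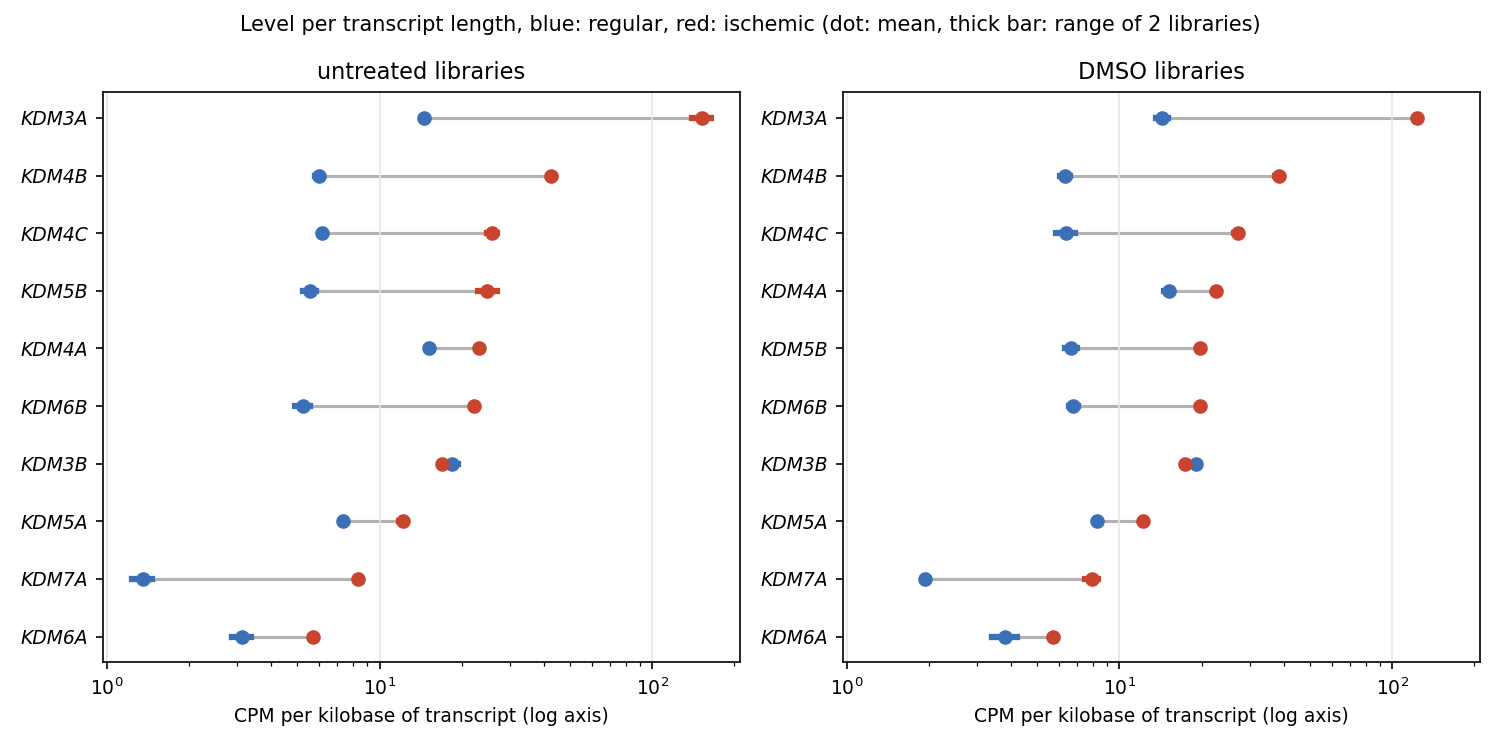
CPM per kilobase of transcript (horizontal log axis) of each demethylase gene (vertical axis, ordered by the ischemic level) in untreated (left) and DMSO (right) libraries, with the mean (dot) and the range of 2 libraries (thick bar), in blue for regular and red for ischemic culture. KDM3A moved from 14.6 to 152 in untreated cells, past KDM3B, which moved from 18.4 to 17.0.

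With the p38α inhibitor VX745 none of the 10 genes passed the limma test in regular culture. Over all genes, 0.178% were called higher and 0.157% lower in that comparison at an adjusted p under 0.05. At an unadjusted p under 0.05, KDM6B and KDM7A were lower, 2 of the 10 genes, and none was higher. The share of all genes at that unadjusted threshold was not counted, and voom on the recovered reads called none of the 10. The lowest values were those of KDM6B, with log2 levels of 5.45 and 5.57 with DMSO and 5.25 in both libraries with VX745 (log2 fold change -0.26, 95% interval -0.39 to -0.13, adjusted p = 0.0894), and of KDM7A (log2 fold change -0.26, 95% interval -0.46 to -0.07, adjusted p = 0.202). Neither gene's groups overlapped, but 2 libraries against 2 can also fall apart without a difference, and the share over all genes was not counted. KDM6B was called lower without DMSO regular replicate 1 (log2 fold change -0.32).

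In ischemic culture VX745 lowered 4 of the 10 genes and raised 1, against 14.9% of all genes lower and 14% higher. No change reached 1.5-fold. KDM3A had log2 levels of 9.17 and 9.16 with DMSO and 8.63 in both libraries with VX745, a log2 fold change of -0.54 (SE 0.06, adjusted p = 5.95e-06). KDM7A went from 6.27 and 6.10 to 5.68 and 5.70 (log2 fold change -0.49, SE 0.09, adjusted p = 0.000894), and KDM5B from 7.54 and 7.51 to 7.18 and 7.21 (log2 fold change -0.33, SE 0.06, adjusted p = 0.000943). Of the 10 genes only KDM6B had overlapping groups in this comparison, so a lack of overlap does not set these 3 genes apart. The share of all genes without overlap was not counted.

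The smaller changes with VX745 in ischemic culture were less stable. KDM4C fell by 0.22 on the log2 scale (SE 0.07, adjusted p = 0.0325), from 6.92 and 6.84 to 6.63 and 6.68, and KDM3B rose by 0.22 (SE 0.07, adjusted p = 0.0163), from 6.87 in both libraries to 7.06 and 7.13. The call of KDM4C was lost without any 1 of the 4 libraries compared (log2 fold change between -0.27 and -0.18), under quantile normalization (-0.15) and without a variance trend, and that of KDM3B without DMSO ischemic replicate 1 (0.22), DMSO ischemic replicate 2 (0.22) or VX745 ischemic replicate 2 (0.19) and without a variance trend. In the same comparison 5 of the 7 hypoxia reference genes fell, with a median log2 fold change of -0.36, and their part in the demethylase values was not tested.

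The MK2 inhibitor MK25 raised 3 of the 10 genes in regular culture and lowered none, against 7% of all genes higher and 5.21% lower. At an unadjusted p under 0.05, 4 were higher and none lower, the fourth being KDM5B, and voom called 3 higher and none lower. The share of all genes at the unadjusted threshold was not counted. KDM3A had log2 levels of 6.13 and 5.98 with DMSO and 6.95 and 7.02 with MK25, a 1.90-fold rise (log2 fold change 0.93, SE 0.06, adjusted p = 4.81e-09). KDM4B had 5.09 and 5.20 against 5.73 and 5.89 (log2 fold change 0.67, SE 0.08, adjusted p = 3.02e-05), and KDM4C had 4.90 and 4.67 against 5.14 and 5.29 (log2 fold change 0.43, SE 0.07, adjusted p = 0.000978). None of the groups of these 3 genes overlapped, and neither did those of KDM4A and KDM5B, which did not pass the test. A lack of overlap thus does not set the 3 genes apart, and its share over all genes was not counted. All 3 act on H3K9, as do KDM3B (log2 fold change 0.01), KDM4A (0.11) and KDM7A (-0.08), which did not pass.

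The other 7 genes had log2 fold changes between -0.08 and 0.15 with MK25 in regular culture and did not pass the test. Among them were KDM6B (log2 fold change -0.06, 95% interval -0.20 to 0.07) and KDM7A (-0.08, 95% interval -0.27 to 0.12), both of which rose in ischemic culture. Beside the 3 genes that rose, 6 of the 7 hypoxia reference genes rose in the same comparison without a hypoxic culture, with a median log2 fold change of 1.32, and their part in the demethylase values was not tested. KDM3A made up 25.1% and 24.7% of the summed level of the 10 genes in the MK25 regular libraries, against 16.6% and 15.6% with DMSO.

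In ischemic culture MK25 lowered KDM7A and KDM4A and raised KDM3B, that is 2 of the 10 genes lower and 1 higher, against 22% of all genes lower and 19.8% higher. KDM7A had log2 levels of 6.27 and 6.10 with DMSO and 5.58 and 5.77 with MK25 (log2 fold change -0.51, SE 0.09, adjusted p = 0.000359). KDM3B had 6.87 in both DMSO libraries and 7.24 and 7.22 with MK25 (log2 fold change 0.36, SE 0.07, adjusted p = 0.000349). KDM3A had 9.17 and 9.16 against 9.03 and 9.11, and its log2 fold change of -0.09 (95% interval -0.22 to 0.03) did not pass the test. KDM4A fell by 0.17 (SE 0.06, adjusted p = 0.0400), from 6.65 and 6.69 to 6.54 and 6.47, and this call was lost without any 1 of the DMSO, MK25 or VX745 ischemic libraries (log2 fold change between -0.20 and -0.13).

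**Figure D4:**
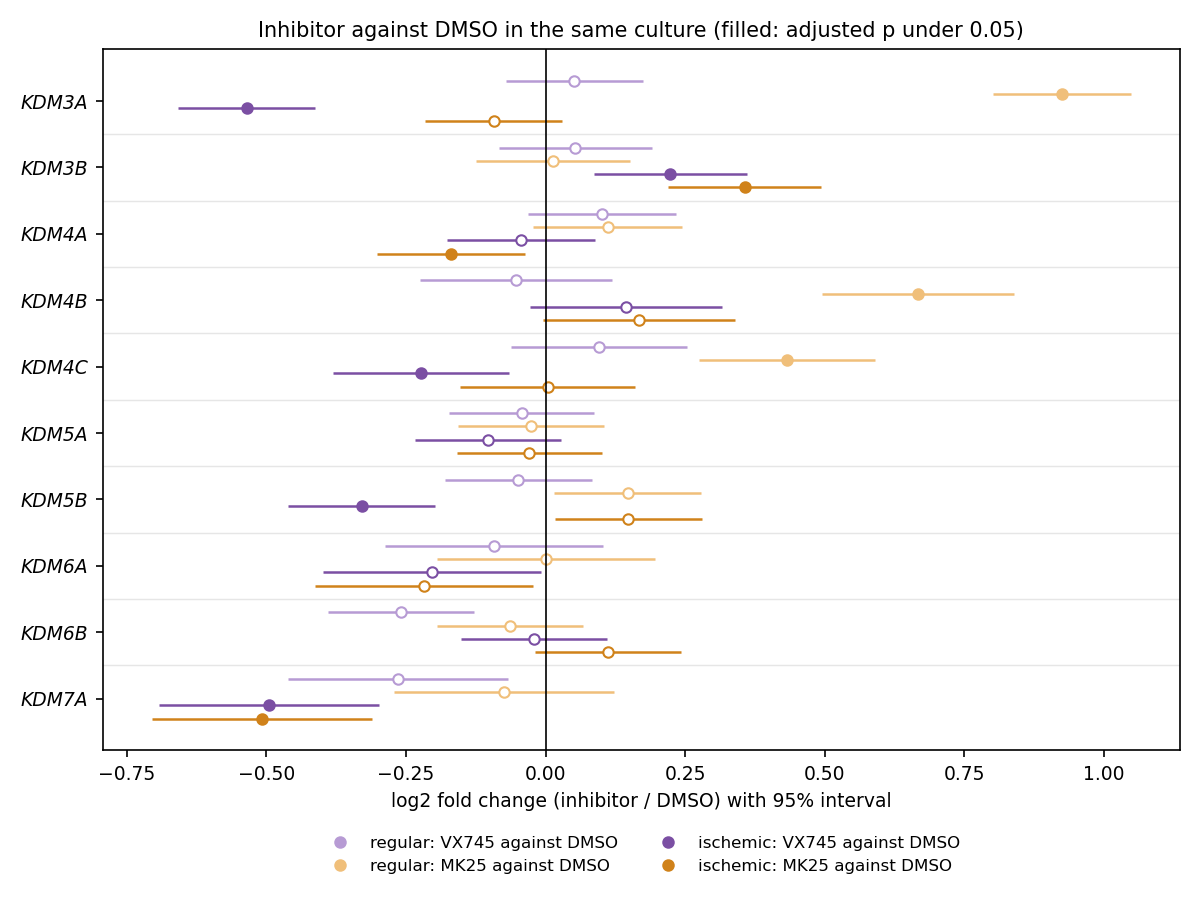
Log2 fold change of each inhibitor against DMSO (horizontal axis) with its 95% interval for each demethylase gene (vertical axis), in regular (light) and ischemic (dark) culture, with VX745 in purple and MK25 in orange, filled where the adjusted p was under 0.05. MK25 in regular culture stands apart for KDM3A (0.93), KDM4B (0.67) and KDM4C (0.43), and VX745 in ischemic culture for KDM3A (-0.54).

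Whether an inhibitor acted differently in the 2 cultures was tested as an interaction, the log2 fold change in ischemic culture minus that in regular culture. For MK25 it passed the test in 6 of the 10 genes, against 24.4% of all genes in either direction. It was -1.02 for KDM3A (SE 0.08, adjusted p = 3.08e-07), -0.50 for KDM4B (SE 0.12, adjusted p = 0.00465) and -0.43 for KDM4C (SE 0.11, adjusted p = 0.00702), the 3 genes that MK25 raised in regular culture. KDM7A (-0.43, adjusted p = 0.0235), KDM4A (-0.28, adjusted p = 0.0294) and KDM3B (0.34, adjusted p = 0.0118) passed with larger adjusted p. The call of KDM3B was lost without MK25 regular replicate 1 (0.29), and that of KDM4A without MK25 regular replicate 2, MK25 ischemic replicate 2, DMSO regular replicate 2 or either DMSO ischemic library (between -0.30 and -0.23). The call of KDM7A was lost without DMSO regular replicate 2, MK25 regular replicate 2, DMSO ischemic replicate 1 or MK25 ischemic replicate 1 (between -0.43 and -0.29).

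For VX745 the interaction passed the test in 2 of the 10 genes, against 11.8% of all genes. It was -0.59 for KDM3A (SE 0.08, adjusted p = 0.000483) and -0.28 for KDM5B (SE 0.09, adjusted p = 0.0481). The value of KDM5B lay at the threshold and its call was lost without any 1 of the VX745 or MK25 ischemic, DMSO ischemic, DMSO regular replicate 1 or VX745 regular replicate 2 libraries (between -0.30 and -0.21).

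Ischemic culture raised most of the demethylase genes in the presence of either inhibitor too. With VX745, 9 of the 10 genes rose and none fell, against 34% of all genes higher and 32.6% lower. With MK25 all 10 rose, against 33.5% higher and 33.7% lower, and 6 rose at least 1.5-fold with either inhibitor, against 18.5% of all genes with VX745 and 17.7% with MK25. The log2 fold change of KDM3A was 2.52 with VX745 and 2.09 with MK25, both against 3.11 with DMSO. KDM4B had 2.81 with VX745 and 2.11 with MK25, against 2.61 with DMSO. KDM3B, the tenth gene to be called with MK25, had log2 levels of 6.96 and 7.08 in regular and 7.24 and 7.22 in ischemic culture (log2 fold change 0.21, adjusted p = 0.00866), a call that was lost without MK25 regular replicate 1 (0.15). The inhibitor and DMSO comparisons share libraries, so these values are not independent of the tests of the inhibitors above.

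A further 17 JmjC proteins were listed, among them histone demethylases of the same and other families (KDM4D, KDM5C, JMJD1C, KDM2A, KDM2B, PHF2 and PHF8). Which JmjC genes stand among the 10 was decided with earlier results known, and the difference between the 2 lists was not tested. In untreated cells 6 of the 17 rose and 4 fell, against 35.2% of all genes higher and 35.2% lower, with a median log2 fold change of -0.03. With DMSO 5 rose and 6 fell, against 34.4% higher and 35.2% lower, with a median of 0.07. The mean log2 level of KDM2B went from 5.33 to 5.98 in untreated and from 5.44 to 5.88 in DMSO cells. That of PHF2 went from 5.42 to 5.39 and from 5.63 to 5.39, and that of PHF8 from 5.52 to 5.52 and from 5.74 to 5.44. KDM4D had a low level, with means that went from 1.00 to 0.31 and from 0.88 to 0.55. Its untreated ischemic libraries lay apart, at -0.03 and 0.65. JMJD6, a lysyl hydroxylase, rose by 1.53 and 1.18 on the log2 scale in untreated and DMSO cells, and KDM8 fell by 1.19 and 0.65. KDM2A, an H3K36 demethylase, rose by 0.82 and 0.33, and JMJD1C, a relative of KDM3A, rose by 0.69 in both. KDM5C, a further H3K4 demethylase named here after its values were seen, rose by 0.59 and 0.33. Of the 2 flavin demethylases, which use oxygen without iron or 2-oxoglutarate, KDM1A fell by 0.64 and 0.27.

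Among the enzymes that write the same marks, changes went both ways. Of 5 H3K9 methyltransferases 1 rose and 3 fell in both experiments, with SETDB1 higher by 0.74 and 0.59 on the log2 scale and SUV39H2 lower (-1.01 and -1.28). SUV39H1 (-0.36 and -0.20) and EHMT1 (-0.27 and -0.35) were lower in both. Of 4 genes of the H3K27 methyltransferase complex, EZH1 (1.16 and 0.97) and EZH2 (0.84 and 0.81) rose and EED fell (-0.90 and -1.32) among 2 higher and 2 lower in both experiments.

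Of 6 H3K4 methyltransferases, 3 rose and 1 fell in untreated cells and 2 rose and 3 fell with DMSO. KMT2C (1.18 and 0.57) and KMT2A (0.72 and 0.30) rose and SETD1B fell (-0.30 and -1.08) in both. KMT2B rose in untreated cells (0.43) and had -0.15 with DMSO, where it did not pass the test, and KMT2D had -0.13 in untreated cells, where it did not pass, and fell with DMSO (-0.86). Of 4 H3K36 methyltransferases 2 rose in untreated cells, NSD2 (0.37) and NSD3 (0.22), and with DMSO NSD2 rose (0.49) and NSD1 fell (-0.27). NSD3 had 0.01 with DMSO and NSD1 0.08 in untreated cells, and neither passed the test there. Of the 3 TET dioxygenases, which need oxygen and 2-oxoglutarate to oxidise methylcytosine in DNA, TET1 (2.40 and 2.23) and TET2 (1.13 and 0.78) rose in both experiments, and TET3 had 0.02 in untreated cells, which did not pass the test, and fell with DMSO (-0.27).

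**Figure D5:**
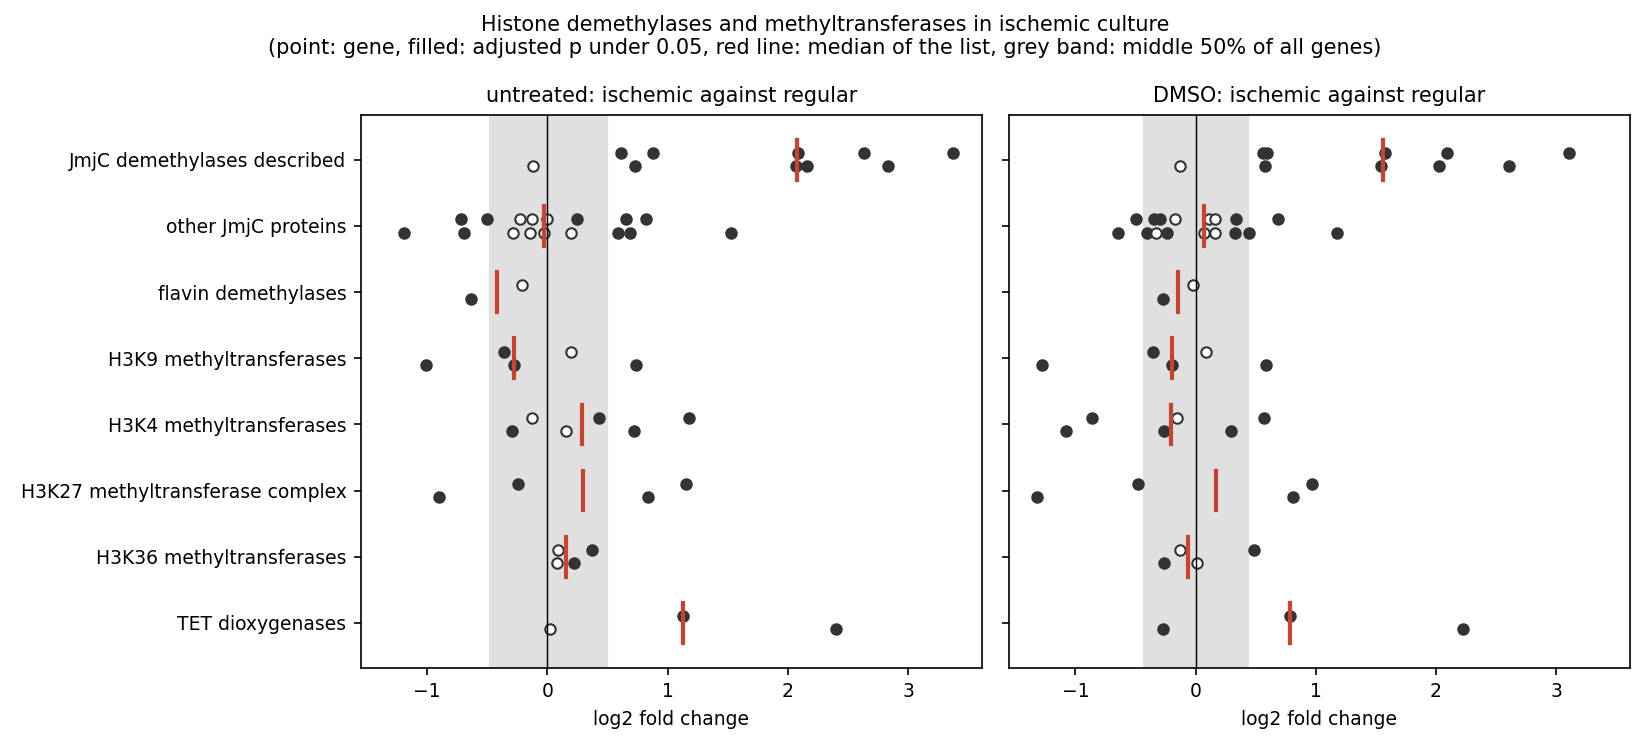
Log2 fold change of ischemic against regular culture (horizontal axis) of each gene (points, filled where the adjusted p was under 0.05) in 8 lists of demethylases, methyltransferases and dioxygenases (vertical axis), in untreated (left) and DMSO (right) cells, with the list median (red line) and the middle 50% of all genes (grey band). The median of the 10 demethylase genes was 2.08 and 1.56, and that of the 17 other JmjC proteins -0.03 and 0.07.

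Across the 8 group means, the profiles of the 10 genes were compared with those of 9769 genes with a mean log2 level of at least 3 by Euclidean distance on the log2 scale, after centring each experiment on its own mean. The closest pair among the 10 was KDM5A and KDM6A, at 0.19, and KDM3A was closest to KDM4B, at 0.65. The genes nearest to KDM3A were FAM162A (0.18), INSIG2 (0.31) and CIART (0.35). Nearest to KDM5B were ERO1A (0.18), GYS1 (0.24) and PLOD1 (0.27), and to KDM6B SERTAD2 (0.11), IRF2BP2 (0.22) and DPYSL4 (0.22).

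The remaining genes had neighbours of the same kind of distance. KDM4B had ZSWIM5 (0.36), POFUT4 (0.44) and ZNF395 (0.45), KDM4C had DYRK1B (0.15), SLC1A4 (0.26) and ISG20 (0.29), and KDM7A had SYT1 (0.22), MAPK7 (0.34) and GTPBP2 (0.35). The genes that moved little had closer neighbours, TRAF2 (0.03), CD99L2 (0.08) and RIC8B (0.09) for KDM3B, BCL2L13 (0.07), NUMB (0.07) and SMYD2 (0.10) for KDM4A, CEP350 (0.08), MAU2 (0.08) and TCAIM (0.09) for KDM5A, and USP8 (0.08), HMGN4 (0.08) and WAC (0.10) for KDM6A. These distances describe 8 groups of 2 libraries and carry no test.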

How the data were processed

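RNA-seq libraries were prepared from LN229 total RNA with the SMART-Seq mRNA HT and Nextera XT kits, which do not mark strand. Per the labels and the study's methods, the authors aligned reads to GRCh38 with HISAT2 and normalized counts with edgeR, and the read counter is not given in the sources used here. The authors deposited log2 normalized CPM per gene, used here as deposited. Undoing the logarithm gave whole reads for 100% of values within 0.05 of a read, which set the depth and a voom alternative. Reads are not independent molecules.

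Differences were tested with limma 3.58.1 in R 4.3.3 on the deposited log2 values, with 1 mean per group in each experiment, a variance trend, two-sided p-values and Benjamini-Hochberg adjustment over all 13559 or 14024 genes. A gene was called at an adjusted p under 0.05. The limma code was tested on simulated data. Experiments were normalized separately and tested separately. CPM was divided by the length of the MANE Select transcript of GENCODE v44, since RefSeq transcript models were not used here. Symbols and positions came from RefSeq on GRCh38.p14.

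The members and lists were chosen with earlier results of these data known. All members were named, the 3 largest called changes of each list in untreated or DMSO ischemia, and the 3 nearest profiles of each member. KDM2B, KDM4D, KDM5C, PHF2 and PHF8 were given values outside this rule. The alternatives were other scaling, filters, offsets, variance models, fold thresholds, a replicate block and leaving out each library. No library was a duplicate of its replicate.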

Additional observations from a re-analysis of the deposited data

Results flagged for a closer look

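The effect of MK25 differed between the cultures, by the interaction test of limma with Benjamini-Hochberg adjustment, in 6 of the 10 demethylase genes, against 24.4% of all genes. The log2 fold change in ischemic culture minus that in regular culture was -1.02 for KDM3A, -0.50 for KDM4B, -0.43 for KDM4C, -0.43 for KDM7A, -0.28 for KDM4A and 0.34 for KDM3B. KDM3A had a log2 fold change with MK25 of 0.93 in regular culture and of -0.09 in ischemic culture, and KDM4B had 0.67 and 0.17. KDM7A had -0.08 and -0.51, and KDM3B had 0.01 and 0.36. The calls of KDM7A (between -0.43 and -0.29), KDM4A (between -0.30 and -0.23) and KDM3B (0.29) were lost when single libraries were left out and without a variance trend, and those of KDM7A and KDM4A also under quantile normalization.

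The effect of VX745 differed between the cultures in 2 of the 10 genes, against 11.8% of all genes. The difference was -0.59 for KDM3A, which had a log2 fold change of 0.05 in regular and of -0.54 in ischemic culture. It was -0.28 for KDM5B, which had -0.05 and -0.33, with an adjusted p of 0.0481. That call was lost under quantile normalization, without a variance trend, by voom, with only the groups compared and without 8 of the 12 libraries in turn.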

How the results depend on the processing

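Of 1910 member values recomputed under the alternatives, none changed direction among those called, 46 lost their call and 28 gained one. The rises of 9 genes in ischemic culture of untreated and DMSO cells were called under each of them other than the stricter folds. Quantile normalization called 1 gene lower in untreated and 1 in DMSO ischemia, 4 higher and 1 lower with MK25 and 3 lower with VX745 in ischemic culture, 1 lower in the VX745 interaction, and 2 higher and 3 lower in the MK25 interaction. Without a variance trend, 0 genes were higher and 3 lower with VX745 and 1 lower with MK25 in ischemic culture, with 1 lower in the VX745 interaction and 0 higher and 3 lower in the MK25 interaction. With only the groups compared, 2 were higher with VX745 and 3 with MK25 in ischemic culture and 1 was lower in the VX745 interaction. Voom on recovered reads gave 2 higher with MK25 in ischemic culture and 1 lower in the VX745 interaction. At a fold change of at least 1.5 or 2, 6 genes rose with MK25 in ischemic against regular culture, and 0 changed with either inhibitor in ischemic culture. At 1.5-fold 1 was lower in each interaction and 0 higher in that of MK25, and at 2-fold 0 were lower for VX745, 1 lower and 0 higher for MK25, and 0 higher with MK25 in regular culture. The cause of these shifts was not tested beyond the stricter fold itself. At 1.5-fold, 17.7% of all genes rose with MK25 in ischemic against regular culture. For the other counts in this paragraph the share of all genes was not counted. Whether those shifts are particular to the demethylase genes therefore cannot be told.

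Leaving out 1 library in turn gave 0 to 1 gene lower in DMSO ischemia, 9 to 10 higher with MK25 in ischemic against regular culture, and 0 to 1 lower with VX745 in regular culture. In ischemic culture it gave 0 to 1 higher and 3 to 5 lower with VX745, and 1 to 2 higher and 1 to 3 lower with MK25. For the interactions it gave 0 to 1 higher and 1 to 3 lower for VX745, and 0 to 1 higher and 3 to 6 lower for MK25. A lone library left in a group was assumed to vary like the other groups. The share of all genes called was not counted for these fits or for the replicate block, so the counts describe the demethylase genes only. The replicate block gave 2 genes higher with MK25 in ischemic culture, KDM3B and KDM5B, and changed no other call. Same-numbered libraries share only a number, and their deviations had a correlation of 0.271 in the first experiment and between -0.266 and 0.325 over 15 pairs of groups in the second.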
